A study of Mus musculus with 9 samples.

Results

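Caspases, the inhibitor of apoptosis proteins (IAPs) that restrain them, and CFLAR are the core of the machinery that commits a cell to apoptosis or withholds it. The 6 genes examined here were Casp8, Cflar, Casp6, Casp9, Birc2 and Birc3. They were chosen by symbol, as every probe set of the deposited table that the platform annotation assigns to one of these symbols alone, which gave 14 of 45037 probe sets and 6 of 18193 genes. The symbols were picked with earlier results of these data known. All 14 carried enough signal to be tested, among 27665 probe sets tested in all.

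The samples were RNA of CD45.1+ LKS+ cells sorted from the bone marrow of C57BL/6 mice labelled as 8 weeks of age. LKS+ cells are lineage-negative, positive for Kit and Sca-1, and enriched for blood stem and progenitor cells. The labels call them normal cells, taken from mice with or without acute myeloid leukemia. There were 3 groups of 3 arrays: control mice, leukemic mice at day 7 and leukemic mice at day 14. How the leukemia was made, and whether each array came from 1 animal, is not given in the sources used here. The sample titles call the arrays biological replicates, without saying whether these were separate animals, and p-values reflect the spread among these arrays alone. The control arrays carry no day, so stage and elapsed time cannot be told apart.

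Caspases are proteases made as inactive precursors. Death receptors of the TNF receptor family gather the adaptor FADD and caspase-8, while damage inside the cell releases cytochrome c from mitochondria, which with APAF1 activates caspase-9; both routes end in executioner caspases. CFLAR (c-FLIP) resembles caspase-8 but has no protease activity of its own, and its long form pairs with caspase-8 and limits its full activation. BIRC2 and BIRC3 (cIAP1 and cIAP2) are ubiquitin ligases held by TRAF2 at TNF receptors; they add ubiquitin to RIPK1 and keep the kinase NIK low, and Birc3 and Cflar are known target genes of NF-kB. Blood stem and progenitor cells without caspase-8 or CFLAR do not sustain normal blood formation.

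The members fall into 2 neighbouring pairs and 2 single genes. In the RefSeq gene table of GRCm38.p6, Cflar and Casp8 are consecutive protein-coding genes on chromosome 1, and Birc2 and Birc3 are consecutive on chromosome 9. Casp6 lies on chromosome 3 and Casp9 on chromosome 4. Birc2 and Birc3 each list the other's symbol as a synonym; the gene identifiers of their probe sets match the current symbols.

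The 250 bases before the RefSeq start are shown for Casp8 and Birc3, the members with the widest fall and rise, and for Birc2, the neighbour of Birc3 that did not pass the test. Sequences are from RefSeq, build GRCm38.p6, and run 5′ to 3′ on the gene's strand. Capitals mark matches on either strand to AANNGAAA, the core bound by interferon regulatory factors (IRFs), in Casp8 and Birc3, and to TGACGTCA, the cAMP response element (CRE), in Birc2.
Casp8 (chr1:58802252-58802501, + strand): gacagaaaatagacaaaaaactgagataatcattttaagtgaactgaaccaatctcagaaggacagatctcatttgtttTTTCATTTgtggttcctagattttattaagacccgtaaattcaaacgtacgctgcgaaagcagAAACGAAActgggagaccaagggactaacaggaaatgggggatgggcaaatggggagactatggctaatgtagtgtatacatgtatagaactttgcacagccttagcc
Birc3 (chr9:7873171-7873420, - strand): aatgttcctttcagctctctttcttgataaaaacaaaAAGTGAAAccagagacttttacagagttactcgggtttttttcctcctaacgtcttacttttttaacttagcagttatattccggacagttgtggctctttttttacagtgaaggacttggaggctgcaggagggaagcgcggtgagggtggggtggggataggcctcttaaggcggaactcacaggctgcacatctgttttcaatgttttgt
Birc2 (chr9:7837058-7837307, - strand): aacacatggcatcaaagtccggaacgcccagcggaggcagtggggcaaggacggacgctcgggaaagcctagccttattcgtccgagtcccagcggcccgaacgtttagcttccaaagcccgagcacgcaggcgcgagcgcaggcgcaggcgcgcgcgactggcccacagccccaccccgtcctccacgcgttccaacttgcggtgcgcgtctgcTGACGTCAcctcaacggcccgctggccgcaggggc
In Casp8 the 2 IRF core matches begin 171 and 108 bases before the start, and in Birc3 the single match begins 213 bases before it. The IRF core was found in 21.3% of 32851 mouse promoter windows of this length, so a match is common, and the CRE in 1.55%. The NF-kB motif was found in 7.25% of windows and in none of the 7 windows listed for the 6 members. GAS (TTCNNNGAA, in 7.02% of windows) and AP-1 (TGANTCA, in 6.75%) were also searched, with 0 matches in the members. The Birc3 window was 43.6% G or C and the Birc2 window 68.4%, where the median over all windows was 52.4%. A second Birc2 window, for the start listed next to this one, held 3 IRF core matches and is not shown. The Casp8 window lies wholly inside the annotated span of the gene; the Birc3 span reaches 35 bases and the Birc2 span 74 bases into theirs.

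Casp8, the initiator caspase of death receptors, showed the deepest fall of the 6 genes. Its single probe set, 1424552_at, read 1310.3, 1228 and 1321 in the control arrays, 1109, 1086 and 1086 at day 7, and 724, 708 and 741 at day 14. The 3 groups did not overlap in any comparison, and day 7 lay between control and day 14. Its mean intensity dropped from 1286 ± 50.7 (control) through 1094 ± 13.4 (day 7) to 724 ± 16.7 (day 14; SD, n = 3 each). With limma across all tested probe sets and Benjamini-Hochberg adjustment, Casp8 fell 1.78-fold from control to day 14 (log2 change -0.83, SE 0.06, adjusted p = 2.2e-05). From day 7 to day 14 it fell 1.51-fold (log2 change -0.60, SE 0.06, adjusted p = 9.6e-05). The difference between day 7 and control, a log2 value of -0.23 (95% confidence interval -0.37 to -0.10), missed the threshold with an adjusted p of 0.067 in limma, and over the 21 alternatives that adjusted p ran from 0.013 to 0.19. Among the 12652 genes tested by their brightest probe set, 473 had a lower change than Casp8 at day 14.

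**Figure D1:**
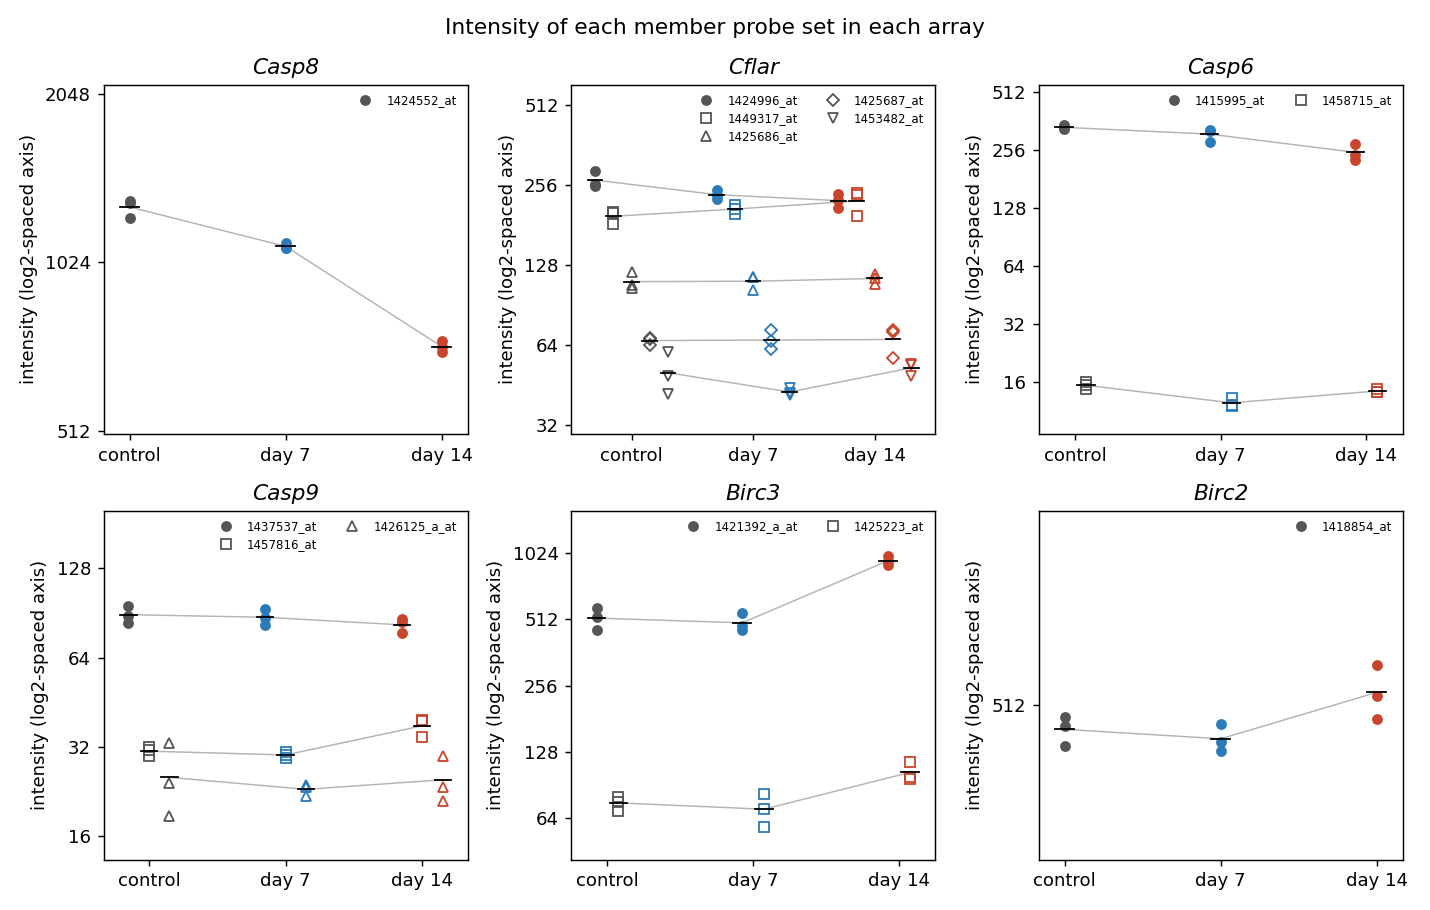
Intensity of every probe set of the 6 genes on a log2-spaced axis, by group; each point is 1 array, short black bars joined by grey lines are group means (n = 3), filled circles are the brightest probe set of a gene. Casp8 steps down from 1286 in control to 724 at day 14, both Birc3 probe sets are highest at day 14, and the 5 Cflar probe sets run in different directions.

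Cflar, whose product holds caspase-8 in check, was measured by 5 probe sets that did not move together. The brightest, 1424996_at, read 252, 258 and 289 in control, 246, 226 and 233 at day 7, and 209, 225 and 236 at day 14. All control arrays lay above all leukemic arrays, while day 7 and day 14 overlapped. It fell 1.19-fold at day 14 (log2 change -0.26, SE 0.08, limma adjusted p = 0.025). The call was lost when control replicate 3 (adjusted p = 0.077 in limma) or day 14 replicate 1 (adjusted p = 0.080 in limma) was left out, and with quantile normalization (adjusted p = 0.12 in limma) and a common 75th percentile (adjusted p = 0.16 in limma). It was also lost in a fit of the 2 groups alone (adjusted p = 0.052 in limma) and with array weights (adjusted p = 0.053 in limma).

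The next Cflar probe set, 1449317_at, was the only one of the 5 that carries a RefSeq accession of the gene. It read 201, 182 and 202 in control, 215, 199 and 208 at day 7, and 235, 238 and 195 at day 14, with the third day 14 array inside the control range. Its log2 difference at day 14 was 0.19 (95% interval -0.01 to 0.39), opposite in sign to the brightest probe set, with a limma adjusted p of 0.11. Without day 14 replicate 3 its limma adjusted p was 0.021, and it also passed upward with quantile normalization and with a common 75th percentile. Probe sets 1425686_at and 1425687_at, which were designed from the same expressed sequence tag, had log2 differences of 0.04 (-0.14 to 0.22) and 0.01 (-0.22 to 0.23). The dimmest, 1453482_at, averaged 50.3 ± 9.12 in control, 42.6 ± 1.32 at day 7 and 52.5 ± 2.98 at day 14. Its 3 day 14 arrays lay above its 3 day 7 arrays, with a log2 difference of 0.30 and a limma adjusted p of 0.062, which was 0.024 after leaving out control replicate 2 and 0.015 after leaving out control replicate 3. With the 5 probe sets averaged, the log2 difference of Cflar at day 14 was 0.01, so no direction is given for the gene as a whole.

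Casp6, an executioner caspase that cleaves lamins, also fell at day 14 by its brighter probe set. Probe set 1415995_at read 332, 328 and 346 in control, 283, 322 and 323 at day 7, and 228, 242 and 275 at day 14. The 3 groups did not overlap, although the highest day 7 array lay close below the lowest control array. From control to day 14 it fell 1.35-fold (log2 change -0.44, SE 0.09, limma adjusted p = 0.0030), and it passed in all 21 alternatives. From day 7 to day 14 the log2 change was -0.32 (SE 0.09, limma adjusted p = 0.015); its limma adjusted p was 0.056 when day 7 replicate 2 was left out, 0.053 when either day 7 replicate 3 or day 14 replicate 1 was, 0.065 with quantile normalization and 0.097 with a common 75th percentile. With both Casp6 probe sets averaged it was 0.49, for a log2 difference of -0.06.

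The other Casp6 probe set, 1458715_at, sat at the edge of detection. It averaged 15.3 ± 0.710 in control, 12.4 ± 0.611 at day 7 and 14.3 ± 0.241 at day 14, and every array at day 7 and at day 14 lay below the 40th percentile of its array. It entered the test only through its control arrays, so its passing at day 7 (limma adjusted p = 0.042) is no evidence of a difference. For that comparison no fold is given. Between the leukemic days, where both groups were that dim, no fold is given either, although the probe set passed (limma adjusted p = 0.031).

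Casp9, the initiator caspase of the mitochondrial route, had 3 probe sets without a common direction. The brightest, 1437537_at, averaged 89.4 ± 5.79 in control, 87.6 ± 5.33 at day 7 and 82.5 ± 4.73 at day 14. Its groups overlapped in every comparison, and the log2 difference at day 14 was -0.11 with a 95% interval of -0.29 to 0.06 (limma adjusted p = 0.26). Probe set 1457816_at read 31.9, 29.8 and 31.1 in control, 30.7, 29.3 and 30.2 at day 7, and 39.4, 39.2 and 34.5 at day 14. Here all day 14 arrays were highest, and it rose 1.22-fold from control (log2 change 0.28, SE 0.07, limma adjusted p = 0.011) and 1.25-fold from day 7 (log2 change 0.32, SE 0.07, limma adjusted p = 0.0054), in every alternative run. The third, 1426125_a_at, spanned 18.7 to 32.9 within the control group alone. Its 95% interval at day 14, from -0.42 to 0.41, holds falls and rises of that size.

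**Figure D2:**
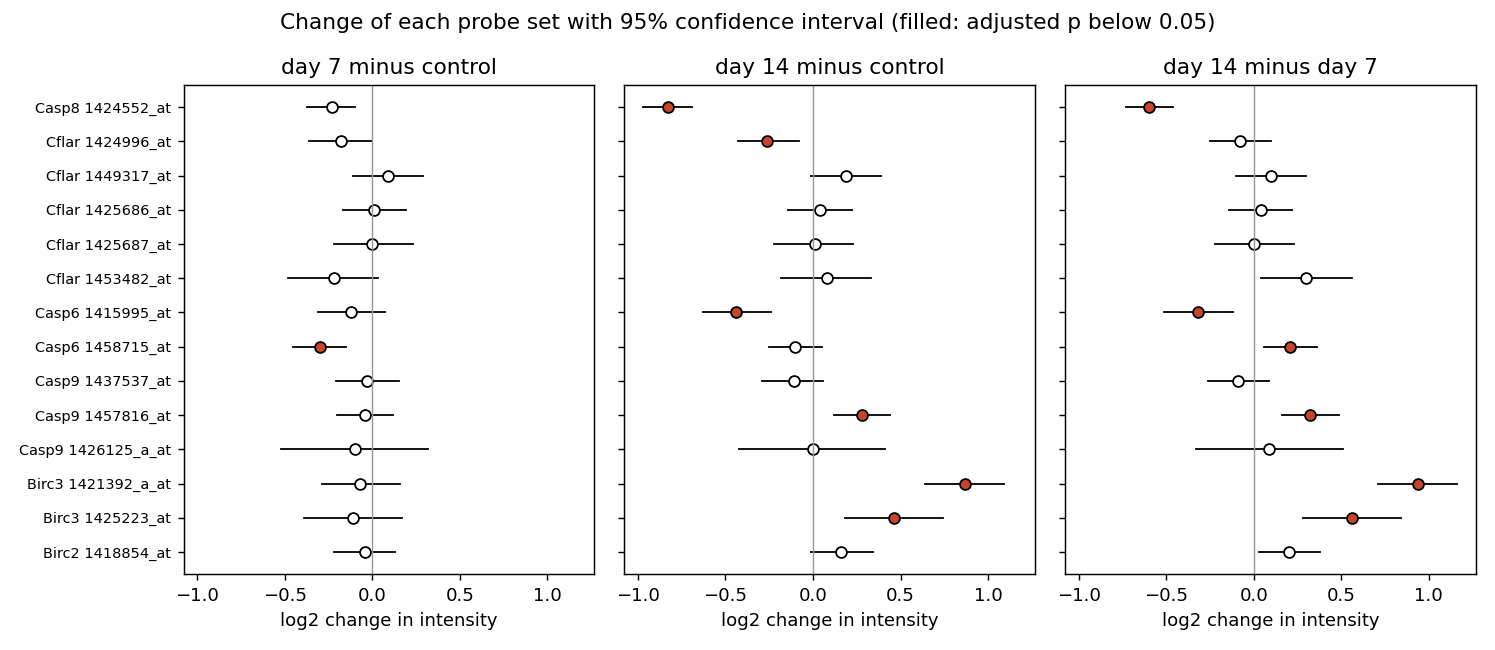
Log2 change of each of the 14 probe sets in the 3 comparisons, with 95% confidence intervals from limma (9 arrays); filled points passed an adjusted p of 0.05. Casp8 lies at -0.83 and the brighter Birc3 probe set at 0.87 for day 14 against control, while among the Cflar probe sets and among the Casp9 probe sets the estimates lie on both sides of 0.

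Birc3, the cIAP2 gene, rose at day 14 by both of its probe sets. Probe set 1421392_a_at read 522, 456 and 577 in control, 477, 457 and 546 at day 7, and 989, 901 and 939.9 at day 14. Control and day 7 overlapped throughout, and each day 14 array lay far above both. The mean went from 518 ± 60.5 in control and 493 ± 47.0 at day 7 to 943 ± 44.0 at day 14 (SD, n = 3 each). The rise was 1.83-fold from control (log2 change 0.87, SE 0.10, limma adjusted p = 0.00018) and 1.92-fold from day 7 (log2 change 0.94, SE 0.10, limma adjusted p = 0.00011). Among 12652 genes, 98.0% had a lower change than Birc3 from control to day 14.

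The dimmer Birc3 probe set, 1425223_at, read 76.2, 69.2 and 80.4 in control, 58.2, 70.9 and 82.2 at day 7, and 96.8, 98.4 and 115 at day 14. It gave the same order of groups with a smaller step, 1.37-fold from control (log2 change 0.46, SE 0.13, limma adjusted p = 0.015). Its limma adjusted p from control was 0.053 when control replicate 2 and 0.054 when day 14 replicate 3 was left out; the rise from day 7 (1.48-fold, limma adjusted p = 0.0053) passed in every alternative run. At day 7 the log2 differences from control were -0.07 (95% interval -0.29 to 0.16) and -0.11 (-0.39 to 0.17) for the brighter and the dimmer probe set.

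Birc2, the cIAP1 gene beside Birc3, read 479, 451 and 493 in control, 483, 444 and 456 at day 7, and 579, 490.4 and 526 at day 14. The second day 14 array fell inside the control range, and all day 14 arrays lay above day 7. The log2 difference from control was 0.16 (95% interval -0.01 to 0.34, limma adjusted p = 0.12), and that from day 7 was 0.20 (0.03 to 0.38, limma adjusted p = 0.061). Both depended on the settings. Over 21 alternatives the limma adjusted p against control ran from 0.022 to 0.34, passing with a common 75th percentile alone (log2 difference 0.28). Against day 7 the limma adjusted p ran from 0.0098 to 0.19. There Birc2 passed upward in 9 of the 21 alternatives, among them quantile normalization, a common 75th percentile and both per-gene summaries. Without day 14 replicate 2 it was 0.034.

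Within each neighbouring pair, the change of one gene was set against that of the other, a quantity chosen after the values were seen. The log2 intensity of Birc3 minus that of Birc2, with the control mean at 0, was 0.00, -0.11 and 0.10 in control, -0.14, -0.08 and 0.14 at day 7, and 0.65, 0.76 and 0.72 at day 14. All day 14 arrays lay above the other 6, so Birc3 changed more than Birc2 by 0.71 on the log2 scale. The log2 intensity of Cflar (brightest probe set) minus Casp8 was -0.10, 0.02 and 0.08 in control, 0.10, 0.01 and 0.05 at day 7, and 0.48, 0.62 and 0.62 at day 14. At day 14 the day's arrays again stood above the other 6, by 0.57 on the log2 scale against control. A two-sided exact permutation test gave p = 0.10 for each of these day 14 differences from control, which is the smallest that 3 arrays against 3 allow, and 0.15 after adjustment over the 6 tests. With the mean of all probe sets of a gene in place of the brightest, the differences were 0.50 for Birc3 minus Birc2 and 0.84 for Cflar minus Casp8.

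**Figure D3:**
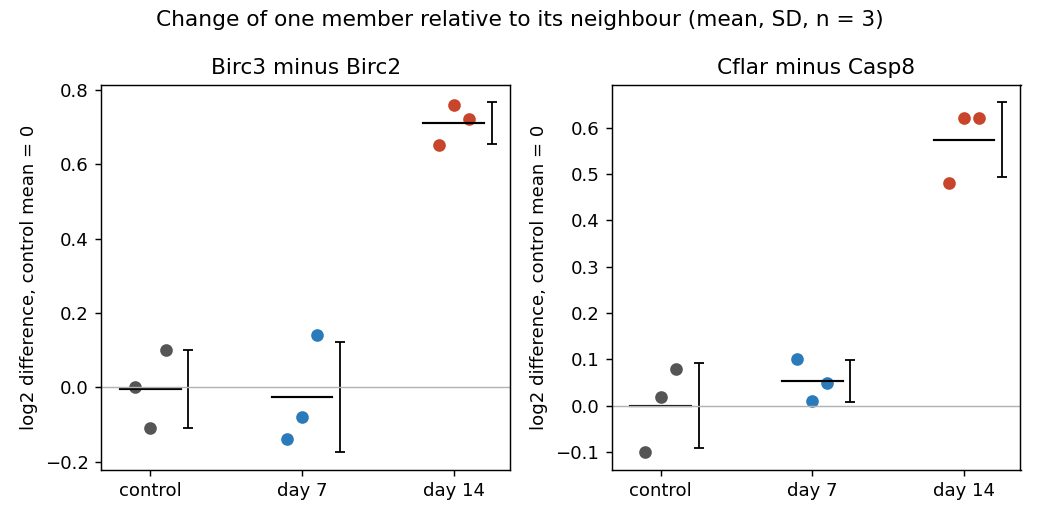
Log2 intensity of Birc3 minus Birc2 and of Cflar minus Casp8 (brightest probe sets) in each array, with the control mean set to 0; horizontal bars are group means and error bars the SD (n = 3). Day 14 arrays lie between 0.65 and 0.76 for the first pair and between 0.48 and 0.62 for the second, with control and day 7 arrays at 0.14 or below in both.

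Counted over probe sets, 6 of the 14 passed from control to day 14, 3 higher and 3 lower, in a comparison where 44.4% of all probe sets passed (17.0% higher and 27.5% lower). The members' share lies near that of all tested probe sets. Against day 7, 4 were higher and 2 lower at day 14, with 42.2% of all probe sets passing (16.5% higher and 25.7% lower). Groups did not overlap for 6 of 14 members at day 14 against control (53.0% of all probe sets), 8 of 14 at day 14 against day 7 (54.2%) and 4 of 14 at day 7 against control (27.8%). At day 7, 1 of 14 passed against control, the dim Casp6 probe set, where 3.39% of all probe sets passed (1.9% higher and 1.49% lower); 3 had an unadjusted p below 0.05 in limma, as did 21.4% of all. No member gene passed at day 7 by its brightest probe set, where 2.71% of genes passed in limma (1.81% higher and 0.901% lower), and 2 of 6 had an unadjusted p below 0.05, as did 18.2% of genes. By brightest probe sets, 4 of the 6 genes passed at day 14 against control, where 48.6% of all genes did, and 3 of 6 against day 7, where 47.6% did (15.7% higher and 31.9% lower). The dim Casp6 probe set that passed at day 7 no longer met the filter once any 1 control array was left out. Its limma adjusted p at day 7 against control lay between 0.075 and 0.14 with any day 7 array left out. With day 14 replicate 2 or 3 left out it was 0.061. The median log2 difference over the 14 was -0.08 at day 7 and 0.02 at day 14, where all tested probe sets had medians of 0.00 and -0.04. The 75th percentile of intensity was 115 to 119 in day 14 arrays and 127 to 130 in the other 6. Setting a common value took the median of all probe sets at day 14 against control from -0.04 to 0.08 and the share of passing probe sets that were higher from 38.2% to 61.6% (48.3% with quantile normalization). Among the members, 4 were higher and 2 lower at day 14 against control with quantile normalization, and 5 higher and 2 lower with a common 75th percentile; against day 7 the splits were 5 and 1, and 6 and 1. Relative to the median of all probe sets, the log2 change at day 14 against control was -0.79 for Casp8 and 0.91 for the brighter Birc3 probe set.

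The genes around the members were described from 7 lists with 90 genes, of which 80 had a probe set with their symbol alone and 76 were tested, each by its brightest probe set. Like the members, the lists were drawn up with earlier results of these data known, so their counts and medians are description only. At day 14, 14 of the 76 rose and 20 fell against control, while over all 12652 genes 16.6% rose and 32.1% fell. The split depended on scaling: 18 were higher and 18 lower with quantile normalization, and 18 higher and 16 lower with a common 75th percentile.

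Of 13 tested genes of death receptors, their ligands, adaptors and regulators, and necroptosis, 7 fell at day 14, 0 rose and 6 stayed short of the threshold. Over all genes, 32.1% fell and 16.6% rose. The median log2 difference was -0.37, against -0.06 for all genes. At least 6 fell in every alternative, and 1 rose with quantile normalization, with a common 75th percentile and without control replicate 3. The 7 include Faim (log2 -0.37), named after its value was seen, which is no receptor, ligand or adaptor. Ripk3, the kinase of necroptosis, fell from 451 ± 34.8 to 271 ± 20.2, and Mlkl, which permeates the membrane downstream of it, from 222 ± 25.2 to 139.6 ± 27.2. Tnfsf10, the death ligand TRAIL, fell 1.64-fold (log2 change -0.71, SE 0.07). Fadd and Tradd, the adaptors at the receptors, are named here after their values were seen: Fadd fell by 0.49 and Tradd by 0.68 on the log2 scale. The receptor gene Tnfrsf1a, also named after its value was seen, had a log2 difference of 0.09 (limma adjusted p = 0.38). Fas itself, with Fasl, Tnfrsf10b and Tnfrsf25, was too dim to be tested. At day 7, Tnf alone of these 13 passed, with a log2 rise of 0.61, and 3 of the 13 had an unadjusted p below 0.05. By day 14 Tnf was among the 7 that fell, by 0.42 on the log2 scale against control and by 1.03 against day 7.

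**Figure D4:**
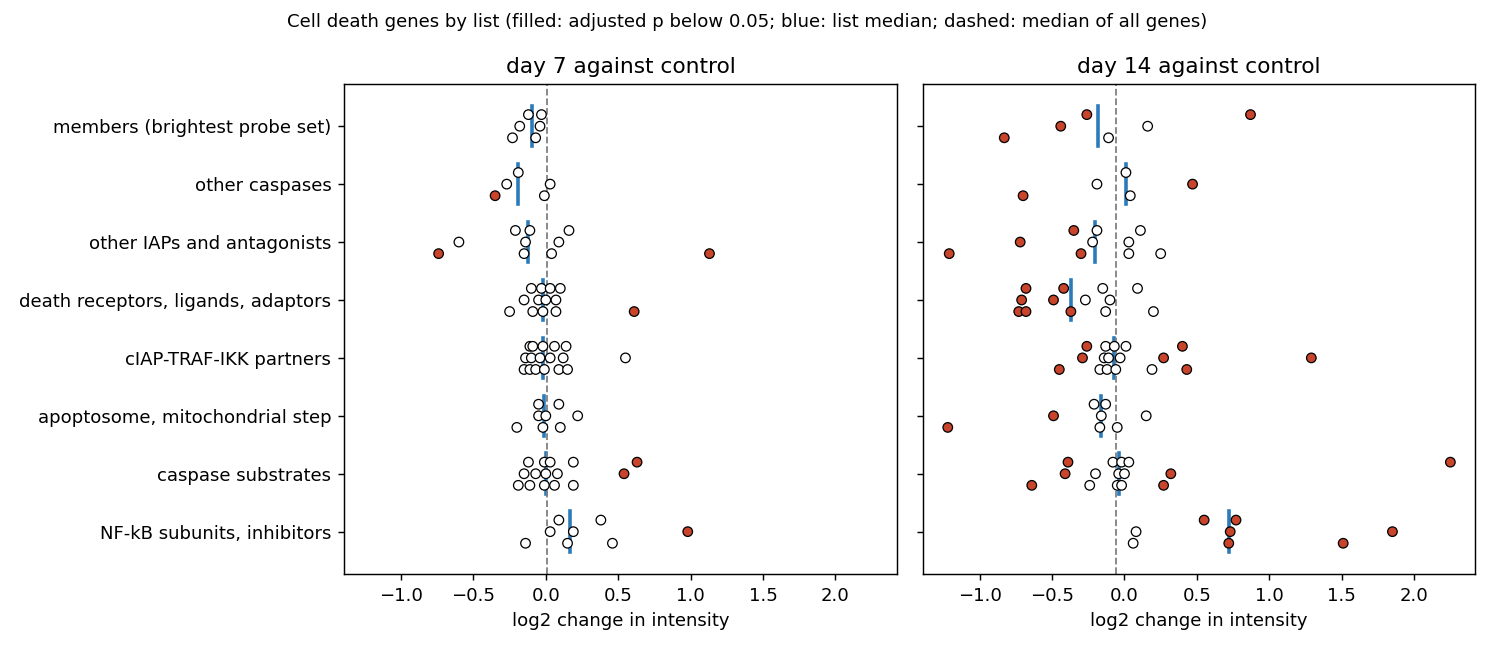
Log2 change of each tested gene (brightest probe set) in the 6 member genes and in 7 lists of related genes at day 7 and day 14 against control; filled points passed an adjusted p of 0.05, blue bars are list medians and the dashed line is the median of all genes. At day 14 the NF-kB list has a median of 0.72 and the death receptor list one of -0.37.

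Of 8 tested NF-kB subunits and inhibitors, 6 rose at day 14 and 0 fell, where 16.6% of all genes rose and 32.1% fell. Their median log2 difference was 0.72, against -0.06 for all genes. The number that rose was 6 or 7 in every alternative. Rel, a subunit of the factor, rose 3.62-fold, from 103 ± 16.6 to 371 ± 46.1. Relb, the partner of the NIK-driven route that cIAPs restrain, rose 1.71-fold, and the feedback deubiquitinase gene Tnfaip3 rose 2.85-fold. At day 7, Rel alone passed, 1.97-fold higher. The levels of Birc3, Rel and Relb at day 14 are set side by side without a test of any link between them.

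Partners of the cIAPs showed both directions at day 14. Of 17 tested TRAF, ubiquitin and IKK genes, 4 rose, 3 fell and 10 did not pass, where 16.6% of all genes rose and 32.1% fell. With quantile normalization or a common 75th percentile, 5 of the 17 were higher and 1 lower. Traf1, an adaptor that binds cIAPs with TRAF2, rose 2.44-fold, from 60.6 ± 11.4 to 147 ± 20.4; Traf6 rose by 0.43 and the E2 enzyme gene Ube2d2a by 0.40 on the log2 scale. Ube2d1 (log2 -0.45), Sharpin (-0.29), a subunit of the linear ubiquitin ligase, and Traf5 (-0.26) fell. Traf2, the adaptor that carries the cIAPs, had a log2 difference of -0.13 and Map3k14, which encodes NIK, one of -0.11, and neither passed; both were chosen after their values were seen, as were Xiap, Casp2 and Apaf1 below. At day 7 none of the 17 passed with limma, 1 had an unadjusted p below 0.05, and the smallest adjusted p belonged to Traf1 (0.073) and Traf6 (0.24).

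Among 10 other IAPs and IAP antagonists, 4 fell and 0 rose at day 14, and the other 6 stayed short of the threshold. Over all genes, 32.1% fell and 16.6% rose in that comparison. Of the 10, 1 rose with quantile normalization, with a common 75th percentile, with 1 probe set fitted per gene and without control replicate 3. With a common 75th percentile, 3 fell. Xaf1, an interferon-inducible antagonist of XIAP, fell 2.31-fold, from 708 ± 84.8 to 309.7 ± 63.4, and Htra2, a mitochondrial protease that binds IAPs, fell by 0.35 on the log2 scale. Birc5, which despite its IAP domain works in mitosis, fell by 0.72 on the log2 scale at day 14 after a log2 rise of 1.13 at day 7. Xiap, the direct caspase inhibitor, had a log2 difference of 0.03 at day 14. At day 7, Xaf1 fell by 0.74 on the log2 scale and 8 of the 10 did not pass.

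Of 5 other caspases tested, Casp1, the inflammatory caspase, fell at day 14 from 373 ± 17.7 to 229.7 ± 23.6 and Casp14 rose by 0.47 on the log2 scale. The identifier of the Casp14 probe set (x_at) warns of cross-hybridisation, and so does that of Nfkb2, which was among the NF-kB genes that rose. Casp2 was at 1189 ± 11.2 in control and 1201 ± 19.2 at day 14. Casp4, which senses bacterial lipopolysaccharide, fell at day 7 by 0.35 on the log2 scale and then rose from day 7 to day 14 by 0.39. Of 8 genes of the apoptosome and the mitochondrial step, 2 fell at day 14 and 0 rose, where 32.1% of all genes fell and 16.6% rose. With quantile normalization, a common 75th percentile, the offset, no filter, averaged probe sets or array weights, 1 was higher. The number lower was 2 or 3 in every alternative. The 2 that fell were Aifm1, a mitochondrial flavoprotein, by 2.33-fold, and Bid, the BCL2 family member that caspase-8 cleaves, from 333 ± 11.2 to 238 ± 17.2. Apaf1, the scaffold of caspase-9, stood at 239 ± 8.80 in control and 231 ± 3.87 at day 14. None of these 8 passed at day 7 with limma, where 1 had an unadjusted p below 0.05; the smallest adjusted p were those of Endog (0.12) and Aifm1 (0.29).

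Of 15 known caspase substrates, 3 rose, 3 fell and 9 did not pass at day 14, where 16.6% of all genes rose and 32.1% fell. Lmna, the lamin that caspase-6 cleaves, rose 4.77-fold from 25.7 ± 5.54 to 121 ± 3.25, Rock1 rose by 0.32 and Stk4 by 0.27 on the log2 scale. Xkr8, a scramblase switched on by caspase cleavage, fell by 0.64, Parp1 by 0.41 and Fnta by 0.39. At day 7, Lmna and the lamin gene Lmnb1 passed, with log2 rises of 0.63 and 0.54. Over all 7 lists 5 of the 76 tested genes were higher and 2 lower at day 7, a total of 7. Among all genes 2.71% passed with limma (1.81% higher and 0.901% lower). An unadjusted p below 0.05 in limma was reached by 16 of the 76 and by 18.2% of all genes. Leaving out control replicate 1 or 2 gave 4 passing listed genes, control replicate 3 or any single day 7 array 2, and day 14 replicate 2 or 3 gave 3.

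The genes whose profile over the 9 arrays was most like that of a member, by the smallest root-mean-square difference of centred log2 intensity, were Vps26c (0.0555), Rbm43 (0.0636) and Zfp493 (0.0645) for Casp8, whose own profile had a root-mean-square spread of 0.350. For Birc3, with a spread of 0.440, they were Pde2a (0.0831), Ctla2b (0.0837) and Plekhg1 (0.0931). For Casp6 they were Ccdc91, Tlcd2 and Abhd14b, at 0.0514 to 0.0550. The closest to the flatter members were Gga1, Mettl21a and Srcin1 for Birc2, Thoc2, Polk and Wdcp for Cflar, and Cyb5r1, Smc5 and Amigo1 for Casp9. These distances share the step at day 14 that many genes show.

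Markers of the sorted cells and of other cells were read in the same arrays. Of 9 listed stem and progenitor markers, 8 were measured. The Sca-1 gene Ly6a was not, as no probe set carried its symbol alone. All 8, among them Kit, Cd34, Flt3 and the CD45 gene Ptprc, were above the 40th percentile in at least 1 array of each group. At day 14 against control, 1 of the 8 was higher and 1 lower. Their summed intensity ranged over 12960 to 13838 (control), 11408 to 12105 (day 7) and 12116 to 13138 (day 14). Over the 6 monocyte and macrophage markers the sum was 742 to 1228 in control and 1472 to 2150 at day 14, with 3 markers higher and 1 lower. Most of that sum was Csf1r, at 740 ± 253 in control and 1532 ± 307 at day 14. Cd68 averaged 121 ± 12.2 in control and 86.7 ± 19.3 at day 14. Both are named after their values were seen. The sum of the 6 megakaryocyte markers went from a range of 561 to 649 in control to 1486 to 1767 at day 14, with 4 higher. The 5 neutrophil markers summed to 111 to 133 in control and 76.1 to 111 at day 14, the 7 B cell markers to 256 to 269 and 339 to 437 (4 higher and 1 lower), and the 6 T and NK markers to 766 to 887 and 590.0 to 704 (2 higher and 2 lower). The 4 erythroid markers summed to 172 to 909 within the control group and 130.5 to 205 at day 14. Of the defining genes, Ms4a1, Cd3g and Alas2 were below the 40th percentile in all 9 arrays. The part of these markers in the changes of Casp8, Casp6 and Birc3 was not tested, and in such bulk samples fewer cells of a type and less RNA per cell cannot be told apart.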

How the data were processed

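RNA of sorted cells was amplified over 2 cycles and measured on Affymetrix whole-genome mouse arrays, per the series' design text. The deposited values are intensities on a linear scale that the authors normalized with Affymetrix's Microarray Analysis Software, per that text; 3 of the 14 member probe sets, and 51.64% of all probe sets, hold exactly equal values in some arrays, and whether arrays were also adjusted together is not given in the sources used here. A floor at the 20th percentile of all values (5.81) was set before taking log2. A probe set was tested if above the 40th percentile of its array in at least 3 arrays. All 9 arrays entered 1 model in limma 3.58.1 (R 4.3.3), every probe set on its own, with Benjamini-Hochberg adjustment over 27665 probe sets and a threshold of 0.05; pair differences used scipy 1.17.1. A gene of a list stood by its brightest probe set. Named were all members, up to 3 passing genes per direction and list with the largest change (or the 2 with the smallest p), and the 3 genes most like each member; genes named outside this rule are marked. Members and lists were chosen with earlier results of these data known. Precision is limited by the number of arrays. The labels name no batch. The steps were tested on simulated data. Of the 90 listed genes, 10 are not analysed here. Alternatives covered scaling, floor, filter, probe set summary, replicate block, samples, variance prior, array weights and leaving out each array.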

Additional observations from a re-analysis of the deposited data

Results flagged for a closer look

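In limma's comparison of day 14 with day 7, which tests whether the change from control differs between the leukemic stages, 6 member probe sets passed. One of them, Casp6 1458715_at, was below the 40th percentile in every array of both days, so its difference of 0.21 on the log2 scale (limma adjusted p = 0.031), opposite in sign to the brighter Casp6 probe set, is not read further; the other 5 follow. The day 14 change minus the day 7 change was -0.60 on the log2 scale for Casp8, whose 3 day 14 arrays all lay below its day 7 arrays. It was 0.94 for the brighter and 0.56 for the dimmer Birc3 probe set, higher in all 3 day 14 arrays in both. For the brighter Casp6 probe set it was -0.32, and for Casp9 probe set 1457816_at it was 0.32. The 2 other Casp9 probe sets had differences of -0.09 and 0.09, and neither passed. Groups of 3 arrays are too small to test for single arrays that stand apart.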

How the results depend on the processing

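Of 42 values (14 probe sets in 3 comparisons), 13 passed, and 8 of these passed in every alternative run for them: Casp8, the brighter Birc3 probe set and Casp9 1457816_at in both comparisons of day 14, the brighter Casp6 probe set against control and the dimmer Birc3 probe set against day 7. Among the 13 that passed, the 1 value that changed sign was Cflar 1424996_at at day 14, at 0.01 when all Cflar probe sets were averaged (adjusted p 0.91). Of the 29 that did not pass, 5 passed in some alternative, and several that lie near 0 crossed it, such as Casp9 1437537_at at day 14 (-0.16 to 0.05). The day 7 counts moved most. Member probe sets passing at day 7 (1) were 0 without the filter, 0 with the replicate block, 0 in a fit of 2 groups alone and 2 with array weights. Member genes (0) were 1 with the offset of 32, the stricter filter, the trended robust prior or array weights. All probe sets (938) were 1429 with the offset, 32 without the filter, 458 with the replicate block, 365 with 2 groups, 1659 with the trended prior and 3012 with array weights. Listed genes (7) were 0 without the filter, 2 with the block, 2 with 2 groups and 13 with array weights. With each array left out in turn, these counts ran from 0 to 1, 0 to 0, 137 to 1015 and 2 to 7. At day 14 against control they ran from 5 to 6 member probe sets, 3 to 4 member genes, 9929 to 11702 probe sets and 33 to 37 listed genes; against day 7 from 4 to 6, 2 to 4, 9379 to 12251 and 31 to 42. The cause of these shifts was not tested. Replicate numbers did not pair the arrays: deviations of same-numbered arrays correlated between -0.13 and 0.11 over 9 pairs. The per-gene settings give no count of probe sets. Signals near the 40th percentile, as for Casp6 1458715_at, and a wide spread within a group, as for Casp9 1426125_a_at, limit what can be seen.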
